A study of Rattus norvegicus with 180 samples.

Results

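Thymus was compared with mesenteric lymph node in the same 3 rats, numbered 4, 5 and 6 in the labels, which gave 6 of the 180 arrays of a rat miRNA atlas. The arrays were chosen by organ and rat number, and every miRNA on the array was considered. The rats were 10-week-old male Sprague-Dawley animals without a genetic change, and all 3 were perfused with saline before the organs were taken, and the labels give no difference between the 2 groups other than the organ. Each sample was total RNA of organ tissue from 1 rat, hybridised to a 1-color array of 717 miRNA names. Since unsorted tissue was used, fewer cells of a type and less miRNA per cell cannot be told apart here.

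The thymus is the organ in which T cells develop. Its cells are mostly immature, dividing or rearranging T cells held in a mesh of epithelial cells. The mesenteric lymph node drains the gut and holds mature T and B cells that arrive through specialised blood vessels, on a scaffold of fibroblastic stroma. A miRNA is a short RNA that lowers the output of transcripts carrying matches to its seed, the bases 2 to 8 from its 5′ end. miR-181 is known in immature T cells as a tuner of signalling from the T cell receptor, and miR-150 is known to be abundant in mature lymphocytes and to act on the transcription factor Myb. The members of the miR-17 to miR-92 cluster are known for promoting survival and division of lymphocyte precursors.

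The 4 main arms of the miR-181 family share 1 seed, which is shown in capitals. All 4 were called higher in thymus, beside 53.4% of all tested miRNAs, and miR-181d was tested only through its detection in thymus. Sequences and positions were taken from RefSeq (GRCr8), in which 111 of the 161 tested names were matched.
miR-181a: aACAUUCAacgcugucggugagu
miR-181b: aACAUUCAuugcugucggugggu
miR-181c: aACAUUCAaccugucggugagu
miR-181d: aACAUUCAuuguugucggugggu
miR-181a differs from miR-181c by 1 base and miR-181b from miR-181d by 1 base, so that probes for one may also take up the other, and the levels within each of these pairs are uncertain. The copy of miR-181b matched here is encoded on the plus strand at chr13:52037263-52037285, next to 1 of the copies of miR-181a at chr13:52037081-52037103. miR-181a has a further copy at chr3:43025601-43025623, inside the span of Nr6a1. RefSeq also lists a further hairpin of miR-181b on chromosome 3, so the levels of miR-181a and miR-181b may come from either locus. miR-181c and miR-181d lie together at chr19:40888314-40888335 and chr19:40888484-40888506, also on the plus strand. The opposite arms of the chromosome 13 hairpins carry other seeds and were measured on their own.
miR-181a-1*: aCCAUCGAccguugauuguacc
miR-181b-1*: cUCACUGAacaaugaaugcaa

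The next sequences are those of miRNAs that share a seed with each other and yet lay on opposite sides in this comparison, and of the single miRNAs that the results turn on. Capitals again mark bases 2 to 8.
miR-130a: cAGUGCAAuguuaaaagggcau
miR-130b: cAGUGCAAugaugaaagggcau
miR-15b: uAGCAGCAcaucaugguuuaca
miR-16: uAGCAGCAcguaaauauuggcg
miR-195: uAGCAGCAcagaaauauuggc
miR-497: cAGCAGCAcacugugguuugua
miR-128: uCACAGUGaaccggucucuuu
miR-10a-5p: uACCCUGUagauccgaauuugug
miR-10b: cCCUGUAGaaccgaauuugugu
miR-126: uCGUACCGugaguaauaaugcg
miR-205: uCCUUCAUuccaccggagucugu
miR-142-3p: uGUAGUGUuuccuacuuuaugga
miR-128 is encoded at chr13:42251933-42251953 on the plus strand, inside the span of R3hdm1, and at chr8:120963807-120963827 on the minus strand, inside that of Arpp21. miR-10b lies at chr3:80035886-80035907 inside the span of the homeobox gene Hoxd4, and miR-126 at chr3:29813219-29813240 inside that of Egfl7, a gene known from endothelium. miR-150, miR-301a, miR-200a, miR-200b, miR-429, miR-99a and miR-335 are described here by name only.

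Between 144 and 171 of the 717 miRNAs were detected per thymus array and between 141 and 183 per mesenteric node array, where detected means that over 50% of the spots used were well above background. No spot was saturated. The levels below are scaled signals, that is, the mean background-corrected spot signal after each array was divided by its 75th percentile over 37 miRNAs detected throughout the atlas and brought to a common target of 2118. On this scale the lowest detected signal was 16.9, 18.6 and 22.3 on the thymus arrays of rats 4, 5 and 6. On their mesenteric node arrays it was 6.30, 8.28 and 16.1, so a dim miRNA could be detected in the node alone at an equal level. The choice of this scaling moved the whole comparison. The median difference between thymus and node over the 161 tested miRNAs was 0.44 on the log2 scale, and under the 5 other scalings or background corrections it ran from -0.40 to 0.65. Calls that hold in one direction under all 6 are therefore counted apart. Levels, sums and orders of organs are given under the scaling named above unless another is named. On 1 array, mesenteric node of rat 5, 6 miRNAs (miR-1249, miR-2985, miR-3085, miR-3573-3p, miR-409-3p and miR-702-3p) were over 3 times as high as on the other mesenteric node arrays, and none of these was called. The thymus arrays had no miRNA that stood apart in this way (0 of those tested). In rats 4 and 5 both organs lay on one slide, and the thymus and lymph node arrays of each rat were scanned on 1 day that held none of the other rats' thymus or node arrays, so the comparison within rats is also one within scan days.

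Of 161 miRNAs tested, 86 (53.4%) were higher and 42 (26.1%) lower in thymus than in mesenteric lymph node, by limma with rat as a block and a Benjamini-Hochberg adjusted p under 0.05. To be tested, a miRNA had to be detected in all 3 rats in thymus, in the node or in both, which 143 met in thymus, 139 in the node and 121 in both organs. Under all 6 scalings, 38 (23.6%) were called higher and 23 (14.3%) lower, a count added after the data had been seen. The 3 thymus values lay above the 3 node values for 86 (53.4%) and below for 40 (24.8%). Of the called miRNAs, 7 had overlapping values, and of the 86 called higher, 85 were higher within rat 5 and all 86 within rats 4 and 6. The 42 called lower were lower within each rat.

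**Figure D1:**
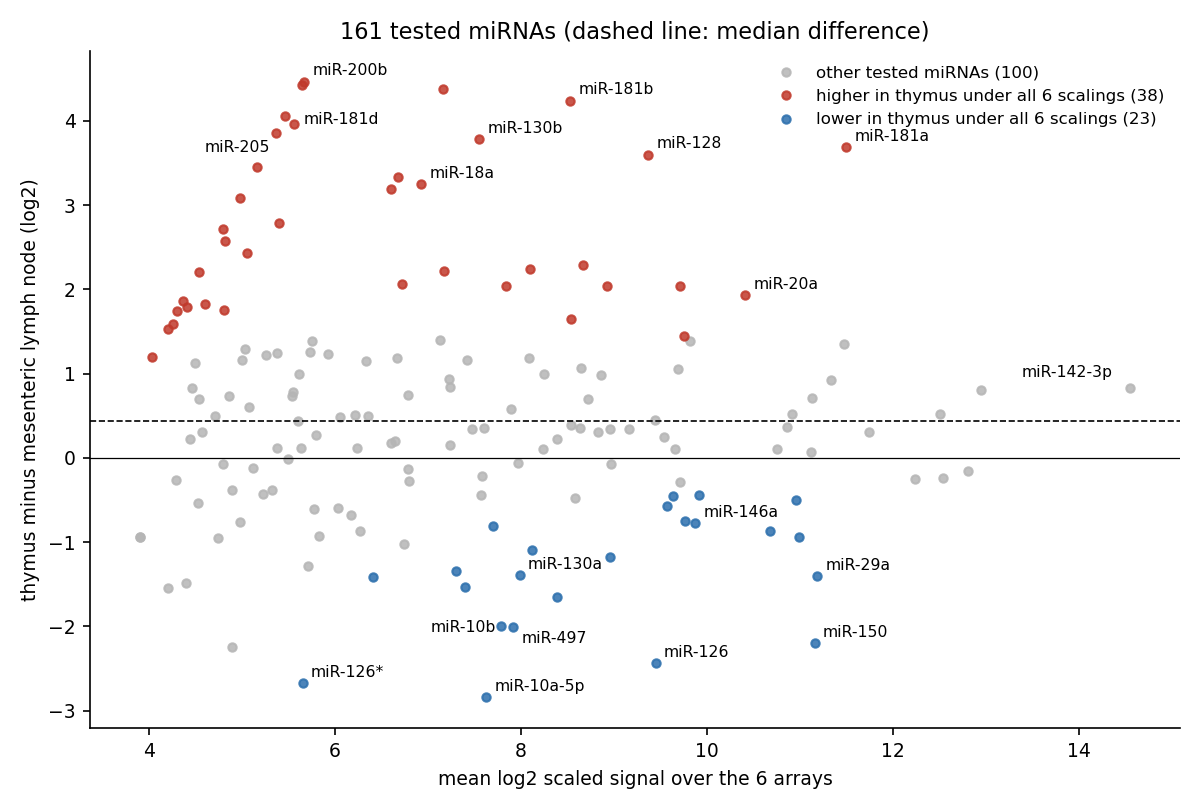
Difference between thymus and mesenteric lymph node on the log2 scale (vertical axis) against the mean log2 scaled signal over the 6 arrays (horizontal axis) for the 161 tested miRNAs, 1 point each. Colors mark the 38 miRNAs called higher and the 23 called lower under all 6 scalings, and the dashed line is the median difference of 0.44. The slanted edge of points at the upper left consists of miRNAs near the floor of 10.8 in the node.

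The miR-181 family was higher in thymus. The 4 members detected on all 6 arrays did not overlap between the organs. Thymus lay above without overlap for 53.4% of all tested miRNAs. miR-181d and miR-181b-1* did not overlap either, but they entered the test through thymus alone, which favoured such a difference. miR-181b read 1584, 1699.9 and 1542 in the thymus of rats 4, 5 and 6 and 75.3, 93.0 and 87.9 in their mesenteric nodes. Its mean level was 1609 ± 81.8 in thymus and 85.4 ± 9.14 in the node (SD, n = 3 each), an 18.9-fold difference (4.24 ± 0.12 log2, SE, limma adjusted p = 4.1e-06). The lowest thymus array was thus far above the highest node array, and the difference ran from 3.38 to 4.24 under the 6 scalings.

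miR-181a read 9698, 11217 and 10310.0 in thymus and 682, 922 and 827 in the node. This is a 12.9-fold difference (3.69 ± 0.11 log2, limma adjusted p = 4.9e-06). The pair from chromosome 19 differed in the same direction. miR-181c read 311, 339 and 239.8 in thymus and 29.3, 39.1 and 29.0 in the node, and differed by 3.19 ± 0.12 log2. miR-181d read 197, 214 and 154 in thymus and 11.7, 13.4 and 10.8 in the node, where it was detected on 2 of 3 arrays, and differed by 3.97 ± 0.11 log2. Neither miRNA overlapped between the organs.

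The opposite arms of the chromosome 13 hairpins, which are usually the less stable strands, were also higher in thymus. miR-181a-1* read 625, 704 and 635 in thymus and 26.1, 36.4 and 32.4 in the node, a 20.9-fold difference. miR-181b-1* read 72.7, 80.8 and 61.2 in thymus and was not detected on any node array, so it was at least 7.53-fold higher in thymus. On the highest of the other 162 perfused arrays of the atlas, miR-181b-1* reached 3.27. Of the 10 family names on the array, the other 4 are opposite arms that were detected on 0 of the 6 arrays. The 4 tested members detected on all 6 arrays were called higher under all 6 scalings, beside 23.6% of all tested miRNAs. miR-181d and miR-181b-1* were also called so, but they entered the test through thymus alone, which favoured a higher level there. Within arrays, the thymus-minus-node difference of miR-181b exceeded that of miR-181a by 0.57, 0.59 and 0.49 log2 in rats 4, 5 and 6, and that of miR-181a exceeded that of miR-181c by 0.43, 0.49 and 0.59.

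**Figure D2:**
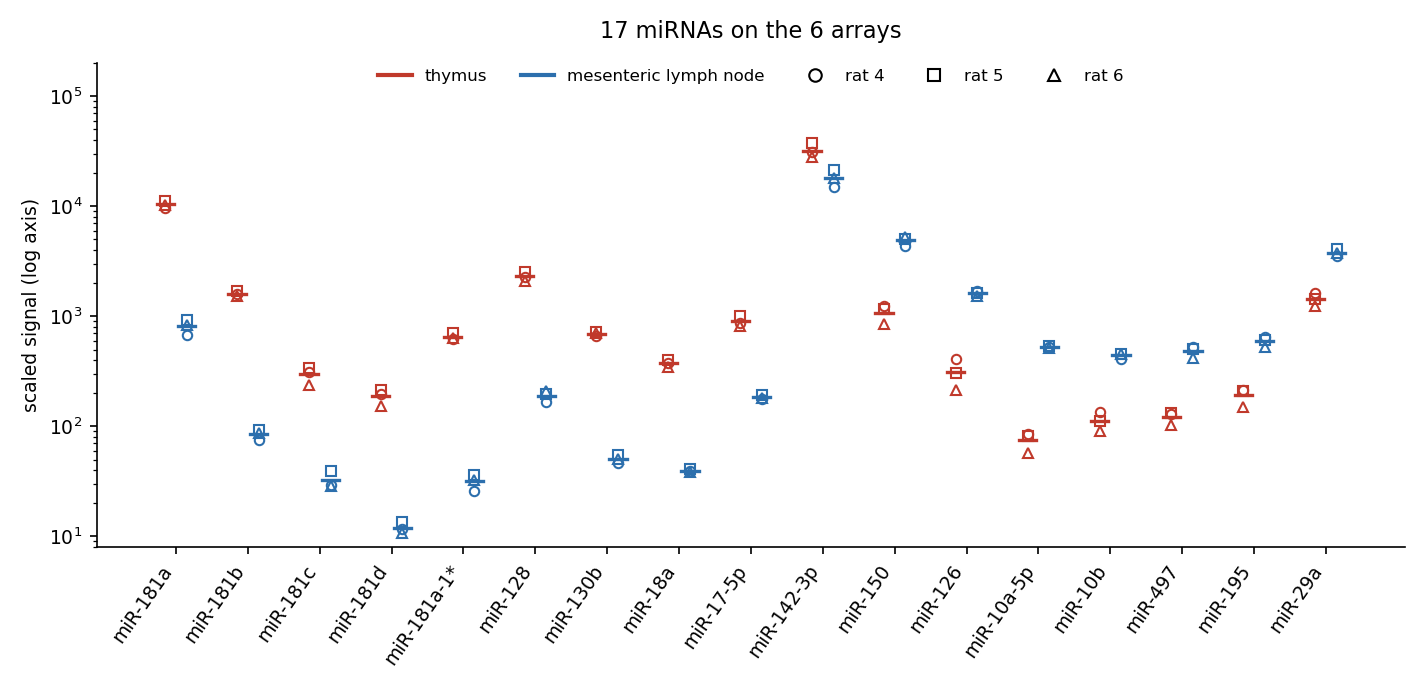
Scaled signal (log axis) of 17 miRNAs on the 3 thymus arrays (red) and the 3 mesenteric lymph node arrays (blue), with 1 symbol per rat and a bar at the mean. The miR-181 family, miR-128, miR-130b, miR-18a and miR-17-5p sit higher in thymus, and miR-150, miR-126, miR-10a-5p, miR-10b, miR-497, miR-195 and miR-29a sit lower.

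miR-128, which is best known from brain, was also high in thymus. It read 2303, 2514 and 2109 in thymus and 167, 195 and 210.3 in the node, a 12.1-fold difference (3.60 ± 0.13 log2, limma adjusted p = 8.2e-06, 2.74 to 3.60 over the scalings). Thymus ranked 4 of 55 perfused organs for miR-128, behind brain regions led by cerebral cortex with a mean of 8586. The 2 genomic copies have the same mature sequence, so their shares cannot be told apart.

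miR-130b and miR-301a, 2 members of 1 seed family, were higher in thymus, while miR-130a was lower. miR-130b read 659, 721 and 709 in thymus and 47.0, 55.3 and 50.1 in the node (3.78 ± 0.11 log2, limma adjusted p = 4.1e-06). miR-301a read 285, 359 and 293 and 65.0, 75.4 and 61.3 (2.21 ± 0.11 log2, adjusted p = 1.9e-05). miR-130a read 194, 152 and 129 in thymus and 451, 411 and 374 in the node (-1.39 ± 0.12 log2, adjusted p = 0.00015). None of the 3 overlapped between organs, and each kept its call under all 6 scalings. Over all tested miRNAs, thymus lay above without overlap for 53.4% and below for 24.8%. Under all 6 scalings 23.6% of them were called higher and 14.3% lower. In the sequences above, miR-130a and miR-130b have the same seed and differ by 2 bases in all, so part of one may be read by the probes of the other. Within arrays, where a scaling factor cancels, the difference of miR-130b exceeded that of miR-130a by 5.03, 5.14 and 5.35 log2 in rats 4, 5 and 6.

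The miR-15 and miR-16 family parted in the same manner. miR-16, a regulator of cell cycle genes, read 10801, 11291 and 9159 in thymus and 5609, 6303 and 5984 in the node (0.80 ± 0.12 log2, limma adjusted p = 0.0017), and miR-15b read 6978, 7041 and 6847 and 4387, 4951 and 5183 (0.53 ± 0.11 log2, adjusted p = 0.0073). The direction of both depends on the scaling, with -0.06 to 0.80 and -0.33 to 0.53 log2 over the 6. miR-195 and miR-497, which share the seed and are encoded together at chr10:55450172-55450529, were lower under all 6 scalings. miR-195 read 216, 211 and 150.3 in thymus and 645, 612 and 531 in the node (-1.65 ± 0.12 log2, adjusted p = 7.8e-05), and miR-497 read 130.2, 132 and 102 and 527, 509 and 419.9 (-2.002 ± 0.11 log2, adjusted p = 2.3e-05). Within arrays, the difference of miR-15b exceeded that of miR-497 by 2.53 ± 0.14 log2 and that of miR-16 exceeded that of miR-195 by 2.45 ± 0.07 log2 (SD, n = 3 rats). The pair on chromosome 10 and the pair inside Smc4 on chromosome 2 thus parted under any scaling by 1 factor per array.

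**Figure D3:**
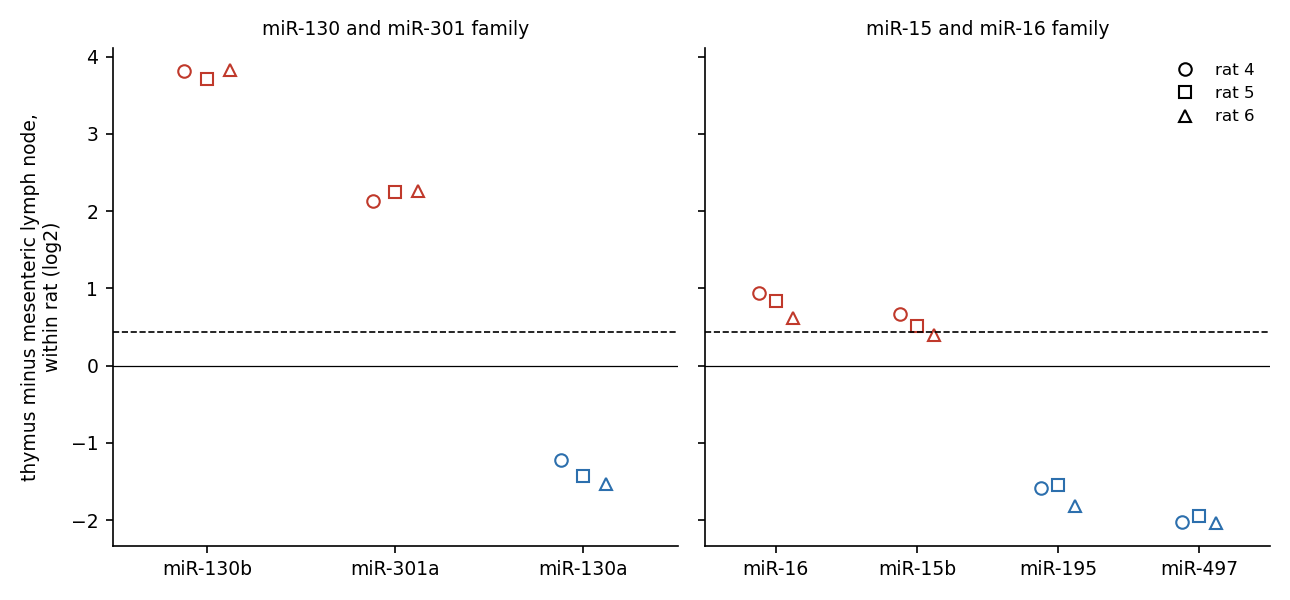
Difference between thymus and mesenteric lymph node within each rat (log2, vertical axis) for the tested members of the miR-130 and miR-301 family and of the miR-15 and miR-16 family, with 1 symbol per rat and the dashed line at the median difference of 0.44 over all tested miRNAs. miR-130b and miR-301a lie above 2 in each rat, miR-130a, miR-195 and miR-497 lie below -1, and miR-16 and miR-15b lie near the dashed line.

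The miR-17 to miR-92 cluster on chromosome 15, with its relatives on chromosome 12 and the X chromosome, was higher in thymus. Of 20 names on the array 12 were tested, all 12 of them detected on all 6 arrays, and 12 were called higher and 0 lower, beside 53.4% and 26.1% of all tested miRNAs. Their median difference was 2.04 log2, beside 0.44 over all 161. Under all 6 scalings 9 of the 12 kept the call, beside 23.6% of all tested, and miR-19b, miR-25 and miR-92a did not. The summed level of the list was between 17992 and 20084 on the thymus arrays and between 6001 and 7037 on the node arrays. The list holds both probe versions of miR-363, so that miRNA enters the counts, the median and the sums under both names.

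The 6 miRNAs of the chromosome 15 cluster, which are cut from 1 primary transcript within 0.762 kb (chr15:98587861-98588622), did not differ equally. miR-18a read 375, 403 and 350.2 in thymus and 39.3, 41.1 and 38.3 in the node, a difference of 3.25 ± 0.11 log2 (limma adjusted p = 5.3e-06). miR-92a, the last member of the cluster, read 3375, 3719 and 3547 and 1583, 1939.6 and 2118, a difference of 0.93 ± 0.12 log2 (adjusted p = 0.00099). The other 4 lay between them, at 2.28 for miR-17-5p, 2.04 for miR-19a, 1.93 for miR-20a and 1.35 for miR-19b. The node level of miR-92a in rat 6, 2118, is the target of the scaling and was set by it. Within arrays the difference of miR-18a exceeded that of miR-92a by 2.16, 2.35 and 2.45 log2 in the 3 rats. miR-92a and miR-19b also have copies on the X chromosome, and RefSeq places the sequence of miR-17-5p there as well, so that levels of these mix both clusters.
miR-18a: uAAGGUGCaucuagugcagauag
miR-92a: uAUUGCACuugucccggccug
miR-17-5p: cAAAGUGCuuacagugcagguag
miR-20a: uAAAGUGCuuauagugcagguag
miR-93: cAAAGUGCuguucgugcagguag
These show the seed that miR-17-5p, miR-20a and miR-93 hold in common with miR-106b and miR-20b-5p. All 5 holders of that seed were called higher under all 6 scalings, beside 23.6% of all tested miRNAs. They belong to the list counted above. Of the 5, miR-17-5p, miR-20a and miR-20b-5p differ from one another by 2 bases, and miR-19a differs from miR-19b by 1 base. Part of one may thus be read by the probes of another, and such calls are not independent. The miRNAs miR-106b, miR-93 and miR-25 lie inside Mcm7, a gene of DNA replication, and differed by 1.45, 2.24 and 1.39 log2. On the X chromosome, miR-363 read 200.0, 232 and 218 in thymus and 47.2, 56.2 and 52.6 in the node (2.06 ± 0.11 log2, adjusted p = 2.1e-05), and a second probe set, named miR-363_v15.0, gave 2.04.

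Epithelial miRNAs were measurable in thymus and mostly below detection in the mesenteric node. miR-205, which is known from stratified and thymic epithelium, read 214, 147 and 122 in thymus and 1.20, 0.607 and 0.855 in the node, where no array detected it, so it was at least 16.6-fold higher. The probe set named miR-205_v15.0 gave at least 24.7-fold. The miR-200 family, which keeps cells epithelial by repressing Zeb transcription factors, showed the same. miR-200b read 255, 263 and 205 in thymus and 0.516, 0.56 and 0.211 in the node (at least 25.4-fold), and miR-200a at least 19.2-fold, miR-141 at least 11.3-fold and miR-429 at least 9.76-fold higher. miR-96, an epithelial and sensory cell miRNA, was at least 5.29-fold higher. miR-200c_v15.0 was the only tested one detected on the node arrays, with 332, 343 and 301 in thymus and 30.1, 35.1 and 31.8 in the node (3.33 ± 0.11 log2, limma adjusted p = 5.6e-06). Of 13 names in this list 8 were tested, both versions of miR-205 among them. Of the 8, 7 were tested through thymus alone, which favoured a difference, so their count is no result. The other 5 include miR-183, miR-182 and miR-31, which were detected on 0 of the 6 arrays. The summed level of the list was between 1216 and 1679 in thymus and between 59.1 and 71.3 in the node. The thymus was not an organ of high levels here, ranking 29 of 55 for miR-200b and 16 of 55 for miR-205. In bounded differences the values are lower limits, since the node values carry no order.

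Among miRNAs of leukocytes, miR-150 was lower in thymus. It read 1235, 1155 and 849.5 in thymus and 4348, 5104 and 5244 in the node, with means of 1080.0 ± 204 and 4899 ± 482 (SD, n = 3 each). The node was 4.58-fold above the thymus (-2.20 ± 0.18 log2, limma adjusted p = 0.00013, -3.05 to -2.07 over the scalings), and all 3 node arrays lay above all 3 thymus arrays. Within rats the difference was -1.82, -2.14 and -2.63. For miR-150 thymus ranked 4 of 55 perfused organs and the mesenteric node ranked 1. Its opposite arm miR-150* read 27.1, 26.3 and 25.1 in thymus and 30.7, 34.9 and 36.6 in the node, and its difference of -0.38 log2 (adjusted p = 0.033) took values of -1.23 to 0.54 over the scalings, so it has no settled direction.

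The direction for miR-142-3p, a miRNA of all blood cell lineages, depended on the scaling. It read 31107, 37355 and 28027 in thymus and 14905, 21308 and 18156 in the node (0.83 ± 0.13 log2, adjusted p = 0.0019), but under scaling over all miRNAs the difference was -0.02 and it was not called. miR-142-5p differed by 0.53 log2 (adjusted p = 0.036, -0.33 under that scaling) and its values overlapped between organs. The sum over the 12 names of the leukocyte list, miR-142-3p included, was between 32429 and 43242 in thymus and between 23179 and 31582 in the node.

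Of the other leukocyte miRNAs, miR-146a and miR-342-3p were lower in thymus under all 6 scalings. miR-146a, a brake on innate immune signalling, read 796, 821 and 565 in thymus and 1113, 1322 and 1248 in the node (-0.77 ± 0.16 log2, limma adjusted p = 0.0056). miR-342-3p, encoded inside the span of Evl, read 881, 858 and 749 and 1012, 1198 and 1156 (-0.44 ± 0.13 log2, adjusted p = 0.024). miR-223, a myeloid miRNA, read 326, 376 and 279 in thymus and 362, 564 and 446 in the node, with overlap, and its call (-0.47 log2, adjusted p = 0.026) was lost without the block on rat (adjusted p = 0.059). miR-146b, which has the seed of miR-146a, read 59.6, 67.5 and 54.2 and 32.5, 37.1 and 39.1 (0.74 log2, adjusted p = 0.0033, -0.12 under scaling over all miRNAs). Over the list, 8 of 12 names were tested, all detected on all 6 arrays, with 3 called higher, 5 called lower and a median of -0.41 log2, beside 53.4% higher, 26.1% lower and a median of 0.44 over all tested. Under all 6 scalings 0 were higher and 3 lower, beside 23.6% and 14.3% of all tested.

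miR-126, which is known from endothelial cells, was lower in thymus. It read 411, 307 and 214 in thymus and 1707, 1647 and 1532 in the node (-2.44 ± 0.17 log2, limma adjusted p = 7.8e-05, -3.29 to -2.02 over the scalings). Its opposite arm miR-126* read 31.2, 23.2 and 11.0 in thymus, with 2 of 3 arrays detected, and 133, 136 and 114 in the node (-2.67 ± 0.25 log2, -4.63 to -0.51 over the scalings). miR-126* entered the test through the node alone, where it is high, which favoured a difference, so its value is a description. For both arms the groups did not overlap.

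miR-10a-5p and miR-10b, which are encoded in the homeobox gene clusters, differed as well. miR-10a-5p read 85.7, 82.1 and 57.4 in thymus and 529.6, 541 and 516 in the node, which was 7.16-fold higher there (-2.84 ± 0.15 log2, limma adjusted p = 2.1e-05, -3.69 to -1.66 over the scalings). miR-10b read 134, 112 and 90.1 in thymus and 411, 457 and 457 in the node (-1.997 ± 0.17 log2, adjusted p = 0.00014, -2.85 to -1.16 over the scalings). The third tested member of the homeobox clusters, miR-196b, lay the other way, with 37.8, 48.6 and 52.4 in thymus and 8.66, 8.64 and 18.2 in the node, where no array detected it. It entered the test through thymus alone, and no fold is given. miR-196a and miR-196c were detected on 0 of the 6 arrays.

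Some miRNAs of stromal cells were lower in thymus too. Of 8 names in the list of fibroblast and smooth muscle markers 5 were tested (1 of them, miR-145, through the node alone), with 0 called higher, 4 called lower and a median of -1.09 log2, and 2 were lower under all 6 scalings. Over all tested miRNAs 26.1% were called lower, 14.3% under all 6 scalings, and the median was 0.44. miR-199a-5p read 72.6, 52.2 and 38.1 in thymus and 162, 146 and 114 in the node (-1.41 ± 0.13 log2, limma adjusted p = 0.00021), and miR-199a-3p from the same hairpin differed by -1.09 log2. miR-145, a smooth muscle marker, was not detected in thymus and was dim in the node, so that only at least 1.08-fold can be given, and miR-143 was not called (-0.29 log2, adjusted p = 0.064). The summed level of the list was between 854 and 1176 in thymus and between 1375 and 1779.8 in the node. For the endothelial pair the sums were 225 to 442 and 1646 to 1839.7. The part of these cells in the lower levels of miR-10a-5p, miR-10b, miR-195, miR-497 and miR-99a was not tested.

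The miR-29 family, known for restraining collagen and DNA methyltransferase genes, was lower in thymus for all 3 members under all 6 scalings, beside 14.3% of all tested miRNAs. miR-29a read 1618, 1438 and 1246 in thymus and 3528, 4115 and 3730.0 in the node (-1.41 ± 0.14 log2, limma adjusted p = 0.00024). miR-29b differed by -0.94 and miR-29c by -1.18 log2. In sequence miR-29a and miR-29c differ by 1 base, so part of one may be read by the probes of the other. miR-99a, whose family is encoded beside let-7 and miR-125 genes, read 110.2, 101 and 88.7 in thymus and 272, 322 and 271 in the node (-1.53 ± 0.13 log2, adjusted p = 0.00014). Of the 5 names of the miR-99, miR-100 and miR-125 families 4 were called lower and 0 higher (26.1% and 53.4% over all tested), 2 of them (miR-99b and miR-100) having entered the test through the node alone, and miR-99a was the one lower under all 6 scalings. Of the 5 names of the miR-23, miR-24 and miR-27 clusters, miR-23a (-0.87 log2), miR-27a (-0.58 log2) and miR-24 (-0.46 log2) were lower under all 6 scalings, again beside 14.3% of all tested. miR-24 has a copy beside miR-23a and miR-27a on chromosome 19 and another beside miR-23b and miR-27b on chromosome 17, so its level mixes both clusters. miR-23b and miR-27b were not called (0.10 and 0.36 log2, adjusted p = 0.55 and 0.063).

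Some miRNAs called lower were not detected on any thymus array, and for these only a lower limit of the fold is given. The thymus arrays had the higher detection limits, as given above. miR-455*, miR-511* and miR-335 entered the test through the node alone, which favoured lower levels in thymus, so their values are a description. miR-455* was detected on 0 of 3 thymus arrays and read 60.3, 73.9 and 61.0 in the node, at least 3.38-fold higher there. miR-511*, from a hairpin known from macrophages, read 21.5, 53.2 and 39.0 in the node (at least 1.85-fold), and miR-335 read 47.6, 38.9 and 17.1 (at least 1.65-fold). With the normexp background these 3 took values of -0.02 for miR-455*, 0.38 for miR-511* and 0.31 for miR-335, so the direction for the last 2 is not settled. Normexp added a constant to each signal before scaling and used no floor. In the main scaling the divisors were 1644, 1013 and 945 for the thymus arrays and 2888, 2039 and 1739 for the node arrays. A constant added before such scaling weighs more in thymus for dim miRNAs, and its part in these values was not tested.

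**Figure D4:**
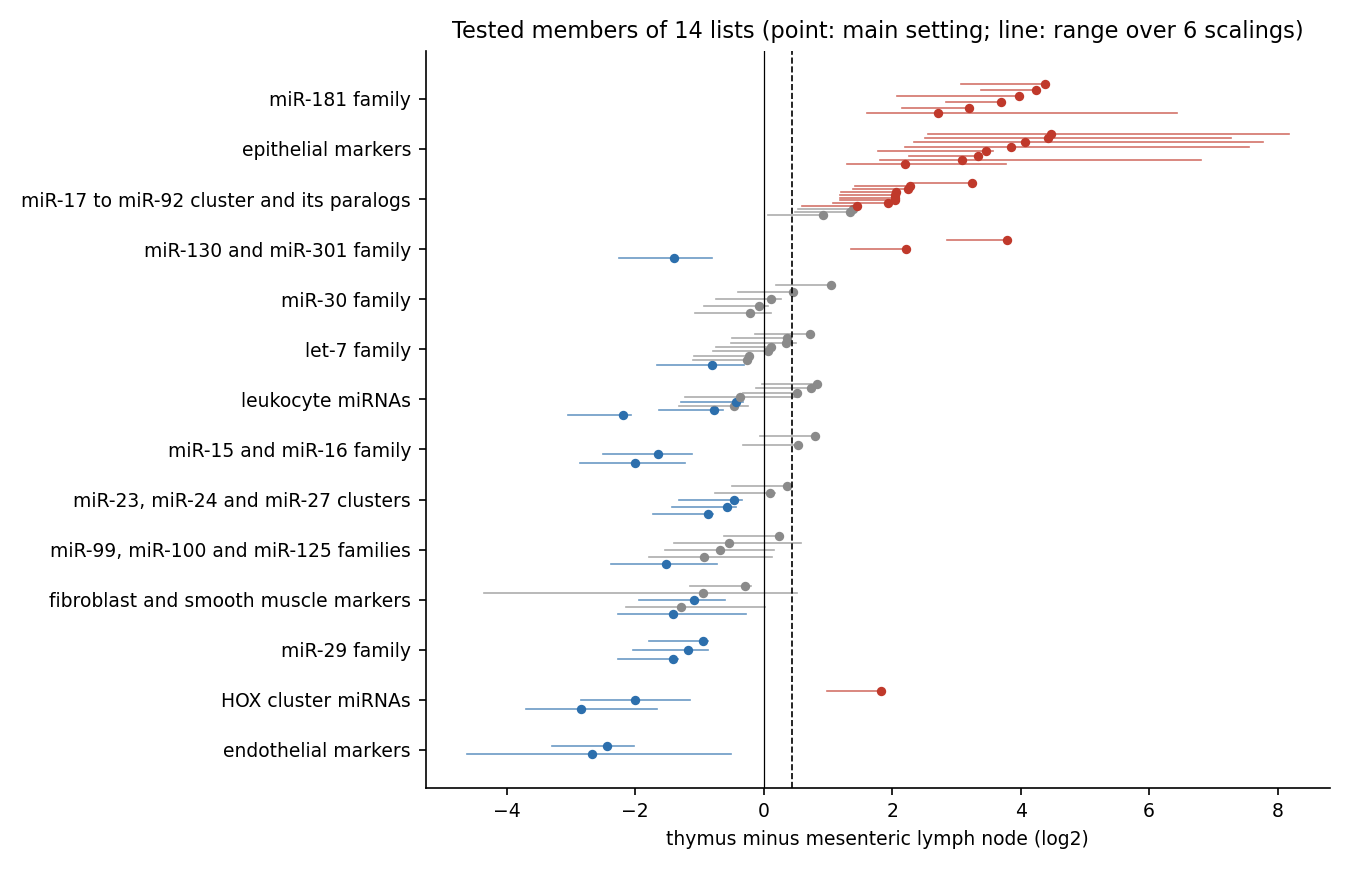
Difference between thymus and mesenteric lymph node (log2, horizontal axis) for the tested members of 14 lists of related or cell type miRNAs, with a point for the reported value and a line for its range over the 6 scalings. Red and blue members were called higher or lower under all 6 scalings and gray ones were not, and the dashed line is the median of 0.44. The miR-181, epithelial and miR-17 to miR-92 lists lie right of 0 and the miR-29 and endothelial lists left of it.

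The remaining lists held small or mixed differences, and their counts stand beside 53.4% called higher and 26.1% called lower over all tested miRNAs (23.6% and 14.3% under all 6 scalings). The 8 let-7 names had a median of 0.09 log2, with let-7i (0.71 log2) and let-7b (0.37 log2) called higher and let-7e (-0.81 log2) called lower. On all 3 thymus arrays let-7b read 2118, the target of the scaling, so its level there was set by the scaling. On the mesenteric node arrays the same held for miR-23a in rat 4, let-7c in rat 5 and miR-92a in rat 6. Only let-7e kept its call under all 6 scalings. Of 5 miR-30 names 2 were called higher, miR-30e at 1.05 and miR-30c at 0.45 log2, and 0 under all 6. miR-221 differed by 0.48 log2 (adjusted p = 0.021, -0.37 to 0.71 over the scalings), and miR-222 was not tested. The red cell miRNA miR-451 read 49.4, 53.2 and 20.2 in thymus and 25.7, 13.6 and 32.8 in the node and was not called (adjusted p = 0.21), and miR-144 was detected on 0 of the 6 arrays. The pancreatic list (miR-216a, miR-216b-5p, miR-217 and miR-375) and the neural list (miR-124, miR-9 and miR-9*) were detected on 0 of the 6 arrays, and of the striated muscle list miR-133b was on 2 of the mesenteric node arrays. Of the gut epithelial list, miR-192 read 30.0, 32.8 and 26.2 in thymus and 14.6, 17.8 and 17.6 in the node, with a difference of -0.03 to 0.89 log2 over the scalings that has no settled direction, and miR-194 and miR-215 were not detected on the 6 arrays. Of the imprinted Dlk1-Dio3 cluster, 55 names were on the array and 2 were tested, miR-409-3p (0.12 log2, adjusted p = 0.82) and miR-494_v15.0 (1.40 log2, adjusted p = 0.00024). The latter ran from 0.55 to 1.40 over the scalings and was not called under 1 of them.

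The other lymphoid and blood-forming organs of the same 3 rats place these levels. miR-181b read 59.4, 86.7 and 79.6 in cervical lymph node, 76.3, 82.0 and 67.5 in spleen and 281, 278 and 341 in bone marrow. The mesenteric node, cervical node and spleen overlapped one another, bone marrow was above all 3, and thymus was above bone marrow on each array. miR-128 read 149, 205 and 216 in cervical node, 173, 149.9 and 143 in spleen and 174, 111 and 126 in bone marrow, so that these 3 organs overlapped and thymus alone was high. miR-130b was intermediate in bone marrow, with 250.2, 265 and 312, against 80.1, 64.0 and 53.0 in spleen. miR-18a read 335, 401 and 539 in bone marrow and overlapped the thymus range there.

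miR-150 read 3245, 4794 and 4857 in cervical node, 2879, 2784 and 2699.5 in spleen and 550.0, 462 and 623 in bone marrow. Bone marrow lay below thymus on all arrays, spleen above it, and the nodes highest, with cervical and mesenteric node overlapping. miR-10a-5p had another order, since the cervical node (51.0, 55.2 and 91.2) overlapped thymus while the mesenteric node, spleen (479, 431 and 414) and bone marrow (254, 262 and 292) were higher. miR-126 read 808, 894 and 1137 in cervical node, 1309, 1071 and 899 in spleen and 1261, 1263 and 1744 in bone marrow, and thymus was below each of these arrays. miR-29a read 1166, 1099.5 and 1237 in bone marrow, where all 3 arrays lay below the lowest thymus array.

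**Figure D5:**
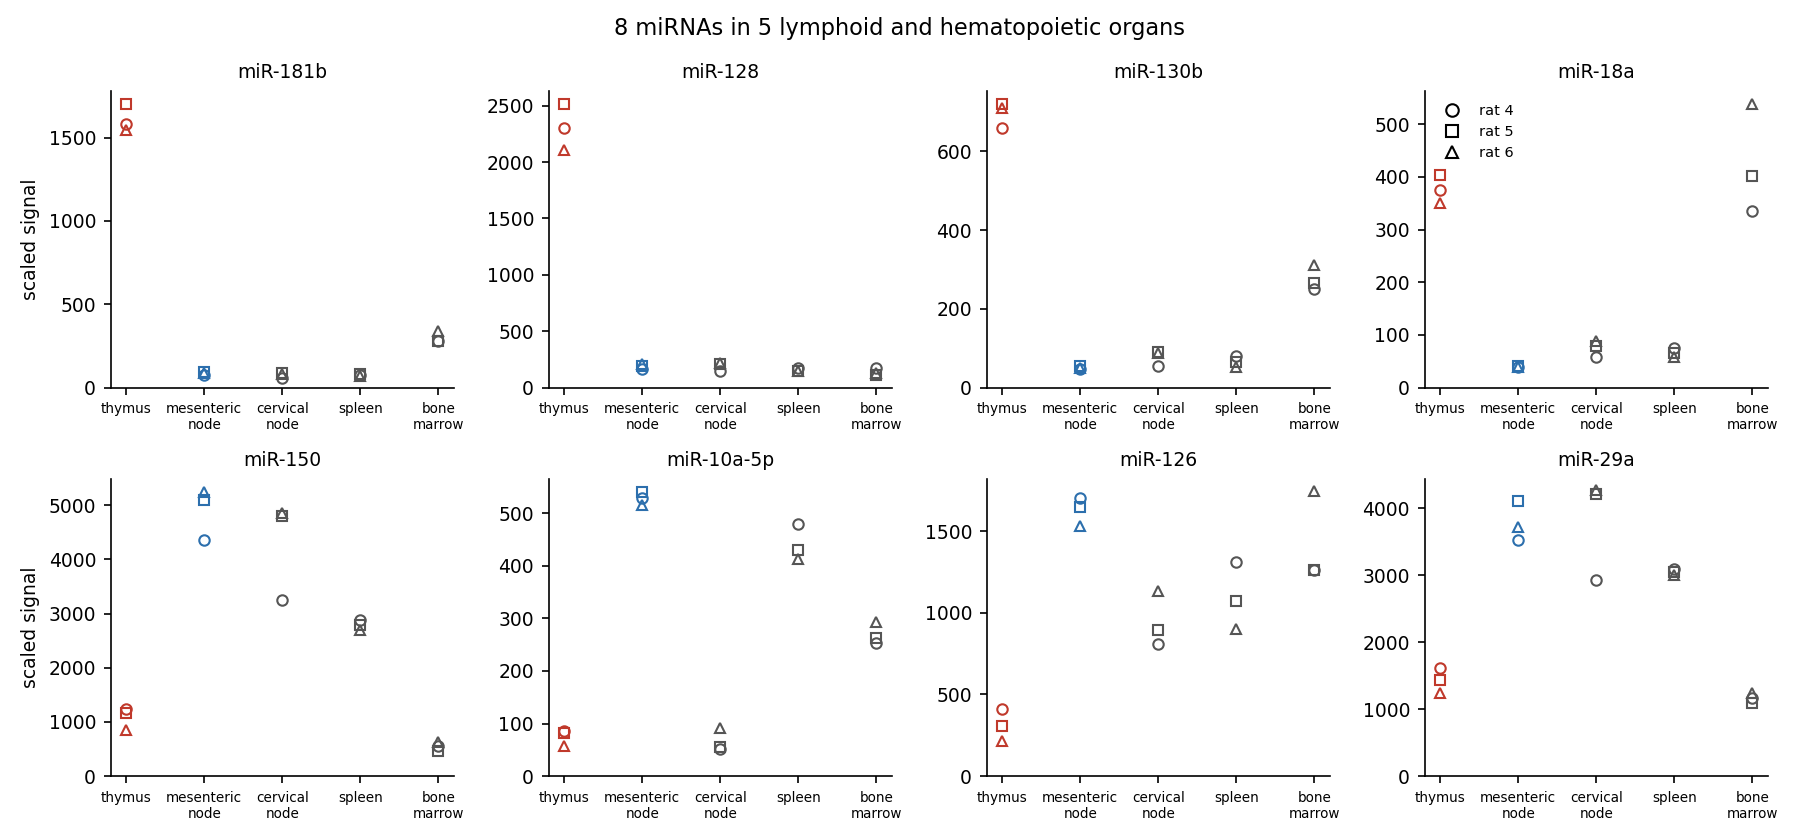
Scaled signal (linear axis from 0) of 8 miRNAs in thymus, mesenteric lymph node, cervical lymph node, spleen and bone marrow, with 1 symbol per rat (rats 4, 5 and 6). Thymus is highest on each array for miR-181b, miR-128 and miR-130b, with bone marrow next for miR-181b and miR-130b, bone marrow overlaps thymus for miR-18a, and for miR-10a-5p the cervical node lies with thymus rather than with the mesenteric node.

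The cervical lymph node of the same rats gave a second comparison, which shares its thymus arrays with the first and is set beside it for that reason only. Of 160 miRNAs tested, 58 (36.2%) were higher and 28 (17.5%) lower in thymus than in cervical node. The cervical node array of rat 4 stood apart. There 8 names of the epithelial list were over 3 times as high as on the other cervical arrays, with miR-200b at 1263, -0.018 and 0.134 in rats 4, 5 and 6, and the summed level of that list ran from 80.2 to 5569.5. miR-375, of the pancreatic list, was 292 on that array. Without rat 4 the counts were 59 and 28, and without rat 5 they fell to 26 and 5. The part of that array's epithelial miRNAs in the other differences was not tested.

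Against the cervical node the difference was 4.44 ± 0.25 log2 for miR-181b (limma adjusted p = 3.7e-06), 3.95 ± 0.25 for miR-181a (adjusted p = 6e-06) and 3.62 ± 0.26 for miR-128 (adjusted p = 1e-05). Against the mesenteric node the same 3 had 4.24, 3.69 and 3.60. miR-150 was at -1.99 ± 0.29 against the cervical node (adjusted p = 0.00077), miR-126 at -1.64 (adjusted p = 0.0024) and miR-497 at -1.87 (adjusted p = 0.00059). miR-10a-5p was not called there (0.22 ± 0.32 log2, adjusted p = 0.57), beside -2.84 against the mesenteric node. miR-200b, called against the mesenteric node, was not called against the cervical one (2.18 ± 1.11 log2, adjusted p = 0.12), where rat 4 carried it at 1263. The first 6 of these kept their call against the cervical node under all 6 scalings, and miR-10a-5p ran from -0.54 to 0.45.

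Over the 55 perfused organs of the atlas, thymus had the highest mean for 23 of the 161 miRNAs and mesenteric node for 5. These counts were 19 and 10 with scaling over all miRNAs, where miR-15b and miR-16 had their highest mean in mesenteric node, and 25 and 12 in the authors' table. For 14 of the tested names every thymus array exceeded the other 162 perfused arrays. These were miR-181a, miR-181a-1*, miR-181b, miR-181b-1*, miR-181c, miR-130b, miR-19b, miR-25, miR-92a, both versions of miR-363, miR-15b, miR-16 and miR-142-3p. Under other scalings, added after the data had been seen, the count was 9 with scaling over all miRNAs and 14 in the authors' table, and 8 and 10 of these were among the 14. miR-142-3p, miR-15b, miR-16 and miR-92a were in neither, while miR-130b, the 5 named miR-181 arms and both versions of miR-363 were in both. For miR-181a the highest other array read 2051, and for miR-181b it read 989. The 5 miRNAs with their highest mean in mesenteric node were miR-150, miR-146a, miR-342-3p, miR-532-5p and miR-532-3p. They kept this place with scaling over all miRNAs and in the authors' table, the only other settings ranked. With normexp background, which was not ranked, miR-532-5p and miR-532-3p were higher in thymus than in mesenteric node. For 0 of the tested names did every mesenteric node array exceed all others. In rank, miR-150 of the mesenteric node overlapped the cervical node.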

How the data were processed

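The 6 arrays of thymus and mesenteric lymph node came from perfused rats 4, 5 and 6, and the atlas holds 180 arrays in all (23 slides, 3 scan days). Total RNA was labelled with Cy3, and the deposited scanner output (Agilent Feature Extraction 10.7.3, per the file headers and the submitters' processing notes) gave a background-corrected signal intensity for each of 14340 spots, which was used as given. The authors also deposited a table of normalized intensity per miRNA, scaled by them to the 75th percentile, which served as an alternative. The number of arrays limits the precision.

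Spots marked as outliers (1.63 to 6.42% of an array) were left out, and the rest were averaged per probe sequence and then per miRNA. For scaling, an array's signals were divided by their 75th percentile among the 37 miRNAs detected throughout the atlas. Signals below 10.8 were raised to that floor, and log2 was then taken. The tests used limma 3.58.1 (R 4.3.3, lmFit and eBayes, two-sided) with rat as a block, since one rat number is one animal, and p was adjusted by Benjamini-Hochberg over all tested. Deviations of thymus and node of one rat correlated at 0.49, 0.35 and -0.02 in rats 4, 5 and 6. Where a miRNA was below detection on all 3 arrays of an organ, the higher of its own value and the lowest detected signal of each array gave the lower limit of the fold. The fit was also run on simulated data with planted changes, without any change of scaling or floor, and no result above rests on it.

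The members and miRNA lists were chosen with earlier results of these data known. Named miRNAs were the 12 largest called rises and 12 largest called falls without overlap, miR-181b, miR-128, miR-150, and the tested miR-181 and leukocyte miRNAs. Other names are examples of lists, clusters or seeds and were chosen after their values were seen. Alternatives changed the scaling, background, floor, filter, spot summary, block and arrays. The normexp alternative added a constant to every signal before scaling and used no floor. Python 3.11.15, numpy 2.4.6, pandas 2.3.3 and matplotlib 3.10.9 were also used.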

Additional observations from a re-analysis of the deposited data

Results flagged for a closer look

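miR-877 had a fitted difference of 1.74 log2 between thymus and mesenteric lymph node and of -0.91 log2 between thymus and cervical lymph node, with one sign in all 3 rats each time. All 3 mesenteric values lay below the floor of 10.8, so the first difference is that of thymus from the floor, and miR-877 entered that test through thymus alone. It read 33.7, 43.5 and 32.6 in thymus, 10.4, 8.73 and 8.08 in mesenteric node, where it was detected on 1 of 3 arrays, and 50.4, 77.2 and 81.2 in cervical node. The difference between the comparisons was not tested, and both share the thymus arrays. Against the cervical node the direction depended on the scaling and background, which gave values from -1.67 to 0.05 (the latter with normexp).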

How the results depend on the processing

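The counts of calls depended on the scaling, and the cause was not tested. In the order higher then lower in thymus, the main counts were 86 and 42 against the mesenteric node and 58 and 28 against the cervical node. Against the mesenteric node they were 41 and 75 with scaling over all miRNAs, 56 and 57 with quantile normalization, 38 and 54 with the authors' table, 113 and 23 with normexp background on the median signal, and 70 and 53 with scaling over miRNAs detected on all 6 arrays. Over these settings the share of higher among called miRNAs, 67.2% at first, ran from 35.3% (scaling over all miRNAs) to 83.1% (normexp), and it was 85% with no filter. Against the cervical node the counts were 27 and 43, 37 and 49, 28 and 47, 94 and 18, and 50 and 38 in the same order, and 37 and 8 with a floor 4 times as high. With no filter, over 717 miRNAs, they were 34 and 6 against the mesenteric node and 0 and 0 against the cervical one in limma (84 with an unadjusted p under 0.05). No other tool was run. Leaving out each rat in turn gave 75 to 87 and 32 to 43 against the mesenteric node, and 26 to 60 and 5 to 28 against the cervical node, where the lowest counts came without rat 5. Without the replicate block the counts were 81 and 39, and 71 and 32. Slide as a block (87 and 32) leaves rats 4 and 5 as the paired arrays, and against the cervical node it had no residual degrees of freedom and was not run. Of 583 values of the 33 named miRNAs under 18 alternatives, 520 kept direction and side of the threshold, 56 lost the call and 7 changed sign. With no filter alone, 18 of the 33 lost the call and 15 kept it. The sign changed for miR-335 (0.31), miR-511* (0.38) and miR-150* (0.54) with normexp, for miR-146b (-0.12), miR-142-3p (-0.023) and also miR-142-5p (-0.33) with scaling over all miRNAs, and for miR-142-5p (-0.16) with the authors' table. Calls of 15 named miRNAs held throughout. Low signal limits the miRNAs near the floor, whose fitted differences depend on the floor.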

Other observations

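Some miRNAs outside the lists were called in one direction under all 6 scalings. Among the higher ones, miR-290 read 107, 133 and 96.1 in thymus and 16.0, 17.9 and 14.4 in the mesenteric node, where it was detected on 2 of 3 arrays. It entered the test through thymus alone, which favoured a higher level there. miR-1224 read 632, 643 and 697 and 217, 203 and 211 (1.64 ± 0.11 log2, limma adjusted p = 5.8e-05). Among the lower ones, miR-151 read 108, 104 and 86.1 in thymus and 236, 267 and 253 in the node (-1.35 ± 0.13 log2, adjusted p = 0.00024), and miR-22 read 663, 685 and 661 and 1075, 1241 and 1069 (-0.75 ± 0.11 log2, adjusted p = 0.0015). The groups did not overlap for miR-1224, miR-151 or miR-22, and all of these miRNAs were chosen after their values were seen.

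The arms of the miR-125a hairpin were measured on their own. miR-125a-3p entered the test through thymus alone, which favoured a higher level there. It read 29.6, 33.7 and 30.9 in thymus and was not detected on any mesenteric node array, at least 2.82-fold higher in thymus. miR-125a-5p read 64.8, 58.7 and 49.2 in thymus and 104, 91.9 and 79.9 in the node (-0.68 ± 0.11 log2, limma adjusted p = 0.0019), with values of -1.53 to 0.16 over the scalings, so that its direction was not settled. The 2 miRNAs of the miR-532 hairpin, which both had their highest mean in mesenteric node among the 55 perfused organs, read 50.1, 58.7 and 51.1 in thymus and 67.9, 93.2 and 82.1 in the node for miR-532-5p and 17.8, 23.0 and 17.5 and 32.3, 41.2 and 38.9 for miR-532-3p, which was detected on 1 of 3 thymus arrays. Their differences of -0.60 and -0.95 log2 turned sign with normexp background, at 0.22 and 0.41. miR-532-3p entered the test through the node alone, where it is high, so its difference is a description.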
